A study of Mus musculus with 8 samples.

Results

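Epcam, the keratins Krt8, Krt18, Krt19, Krt10 and Krt14, the cadherin Cdh1 and the claudin Cldn7 are 8 genes whose products hold epithelial cells together or form their filaments. They were described here in long bone of Hyp and wild-type (WT) mice. Every probe set that the platform annotation gives to exactly 1 of these symbols was taken, which gave 13 probe sets of 45037 and 8 genes of 18193. A probe set shared by Krt14 and Krt17 was therefore left out. The members were chosen by the Hyp against WT differences of these same arrays, above all that of Epcam, so their values are given as a description and carry no test.

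RNA from tibia and femur of male mice, 12 days old, was hybridised to 8 arrays, 4 for Hyp and 4 for WT. Hyp mice lack the 3′ end of Phex on a C57BL/6 background and model X-linked hypophosphatemia, in which bone mineralizes poorly and phosphate is lost in the urine. The WT mice carry no such deletion, and their strain label reads wild type only. Each RNA pooled 2 bone samples of the same genotype, and the labels do not say how many animals stand behind an array. The p-values therefore cover only the variation from one RNA pool to another, which may be technical. The deposited values had been centred for each probe set on the median of the 8 arrays, so 0 is that median, 1 unit is a doubling, and no level of expression can be read. It therefore cannot be seen here whether a defining marker of bone or of epithelium is at background.

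The labels were checked with Phex and Fgf23. Phex lay between -4.93 and -3.72 in Hyp and between 3.72 and 4 in WT at 1 probe set, and between -2.74 and -2.03 against 2.03 and 2.96 at the other. Fgf23, the phosphate-lowering hormone of bone, lay between 2.39 and 3.16 in Hyp and between -3.09 and -2.39 in WT. It was not checked whether the Phex probes fall inside the deleted part, and probes outside it would not check the labels. WT replicate 3 stood apart from the other arrays on the second principal component (-38.4 against -10.3 to 17.5), and the mean of 14 skeletal muscle markers was 1.98 there against -1.25 to 0.32 on the other 7 arrays.

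Epcam encodes a membrane glycoprotein of epithelial cells that takes part in contacts between neighbours, binds claudin-7 at the lateral membrane and is cut by membrane proteases. Keratins are intermediate filament proteins that assemble only as pairs of an acidic type I chain and a basic type II chain. In simple epithelium type II Krt8 pairs with type I Krt18 or Krt19, while Krt10 and Krt14 are type I keratins of stratified epithelium, chiefly epidermis. Cdh1, or E-cadherin, is the adhesion receptor of epithelial adherens junctions, and Cldn7 is a tight junction protein. Bone itself is not an epithelium.

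The windows just before the transcription starts of Epcam, Krt18 and Krt8 are shown because the first of these differed most between genotypes and the other two form a filament pair of which 1 partner differed. The sequences are the 250 bases before the annotated start on GRCm38.p6 from RefSeq, read 5′ to 3′ along the strand of the gene. Capitals mark CACCTG or its reverse complement CAGGTG, the E-box form that repressors of the Snail and Zeb families bind.

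Epcam, chr17:87635729-87635978, plus strand: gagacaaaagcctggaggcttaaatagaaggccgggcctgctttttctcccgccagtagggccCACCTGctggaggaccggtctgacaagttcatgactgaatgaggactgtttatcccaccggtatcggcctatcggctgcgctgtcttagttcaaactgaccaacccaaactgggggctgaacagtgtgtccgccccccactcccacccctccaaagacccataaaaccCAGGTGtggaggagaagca
Krt18, chr15:102027966-102028215, plus strand: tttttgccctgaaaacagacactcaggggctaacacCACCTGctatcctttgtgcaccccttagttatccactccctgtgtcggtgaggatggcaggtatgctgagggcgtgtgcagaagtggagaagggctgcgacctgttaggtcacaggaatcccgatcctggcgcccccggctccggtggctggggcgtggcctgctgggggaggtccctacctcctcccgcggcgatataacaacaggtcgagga
Krt8, chr15:102004343-102004592, minus strand: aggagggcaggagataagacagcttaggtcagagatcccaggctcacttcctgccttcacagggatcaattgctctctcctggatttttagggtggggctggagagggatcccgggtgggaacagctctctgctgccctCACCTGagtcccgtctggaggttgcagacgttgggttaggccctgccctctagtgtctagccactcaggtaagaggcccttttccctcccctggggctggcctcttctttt

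The E-box began 187 and 19 bases before the start in Epcam, 214 bases before it in Krt18 and 111 bases before it in Krt8. The RefSeq table held promoters for 6 of the 8 genes, 7 in all. Of these, 5 held the E-box: those of Epcam, Krt18, Krt8 and Krt10 and 1 of the 2 of Cldn7. The promoter of Krt14 and the other promoter of Cldn7 did not hold these letters. Among all 32851 promoters of the table, 17.2% held it on either strand in the same 250 bases. The match is a description of the letters. It was present in the promoter of Krt8, whose probe sets overlapped between genotypes, as well as in those of Epcam and Krt18.

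Epcam was the member with the largest difference, and it was higher in Hyp bone. Probe set 1416579_a_at read 1.5, 1.64, 1.17 and 0.6 in Hyp replicates 1 to 4 and -0.67, -0.73, -0.6 and -1.22 in WT replicates 1 to 4. Every Hyp array lay above every WT array. The mean was 1.23 ± 0.46 (SD, n = 4) over the Hyp arrays and -0.81 ± 0.28 over the WT arrays, a difference of 2.03 ± 0.21 (SE) on the log2 scale or 4.1-fold. It ranked 4 from the highest among the 45037 probe sets. Within Hyp, replicate 4 held the lowest value and replicate 2 the highest, and within WT replicate 4 was the lowest.

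The other Epcam probe set, 1447899_x_at, did not show this difference. Its values were 0.09, 0, 0.24 and 0 in Hyp and -0.23, 0, -0.22 and 0.07 in WT, and the arrays of the genotypes overlapped. It differed by 0.18 ± 0.09 (SE). The suffix of its name marks probes that can also bind other transcripts, and where in the Epcam transcript each probe set lies was not examined. The mean of both probe sets differed by 1.11 ± 0.11.

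**Figure D1:**
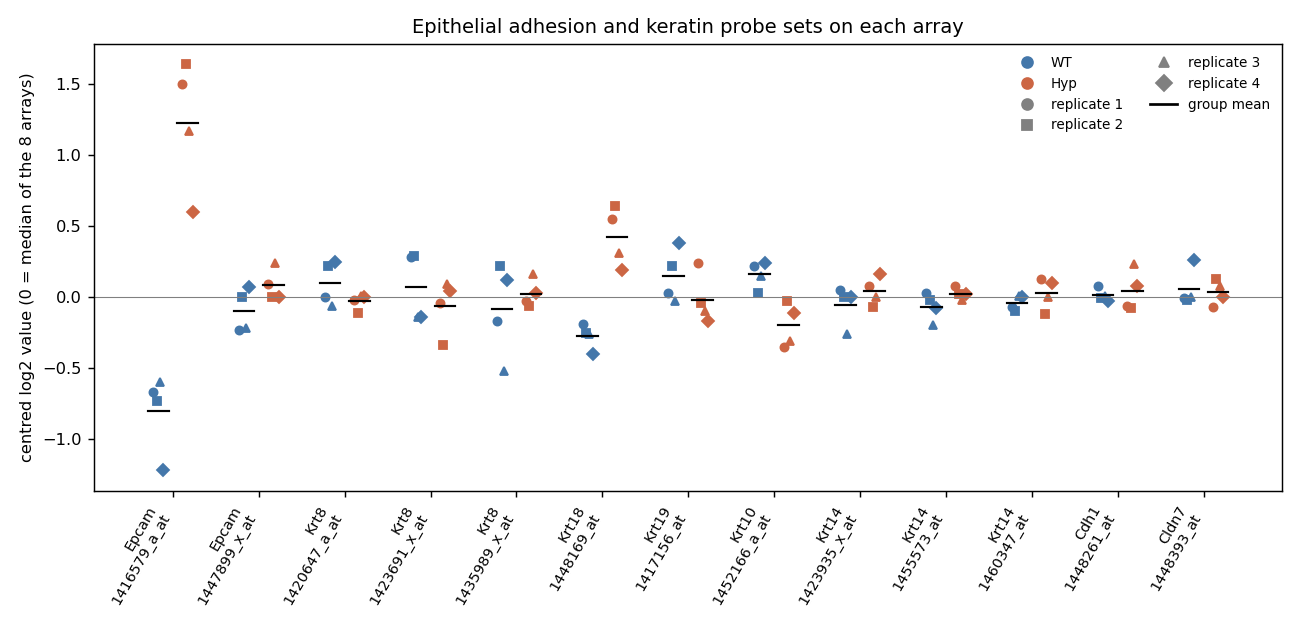
Centred log2 value (y axis, 0 is the median of the 8 arrays) of each of the 13 probe sets (x axis) on each array, with WT in blue, Hyp in orange, 1 marker shape per replicate number and a bar at each group mean. Hyp and WT separate widely at Epcam 1416579_a_at and Krt18, narrowly and in the other direction at Krt10, and overlap at the other 10 probe sets.

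Krt18, the acidic chain of the simple epithelial filament, was also higher in Hyp bone. Its 1 probe set read 0.55, 0.64, 0.31 and 0.19 in Hyp and -0.19, -0.25, -0.26 and -0.4 in WT. All Hyp arrays lay above all WT arrays, and as for Epcam, Hyp replicate 2 was the highest and WT replicate 4 the lowest array. The difference was 0.7 ± 0.10 (SE), or 1.62-fold, between 0.42 ± 0.21 (SD, n = 4) in Hyp and -0.27 ± 0.09 in WT.

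Krt8, the basic chain that pairs with Krt18, overlapped between genotypes at its 3 probe sets. At 1420647_a_at the values were -0.02, -0.11, 0.01 and 0 in Hyp and 0, 0.22, -0.06 and 0.25 in WT, a difference of -0.13 ± 0.08 (SE). The probe sets 1423691_x_at and 1435989_x_at, both with the suffix of shared probes, differed by -0.14 ± 0.13 and 0.11 ± 0.14, so the 3 did not share a direction. WT replicate 3 was the lowest array at 1435989_x_at, at -0.52.

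The pair was compared within each array, where the scale of the array cancels. Krt18 minus the mean of the Krt8 probe sets was 0.58, 0.8, 0.22 and 0.17 in Hyp and -0.23, -0.49, -0.02 and -0.47 in WT. All Hyp arrays were above all WT arrays, at 0.44 ± 0.30 (SD, n = 4) against -0.3 ± 0.22, a difference of 0.75 ± 0.19 (SE). It is close to the difference of Krt18 alone and, like it, carries no test.

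**Figure D2:**
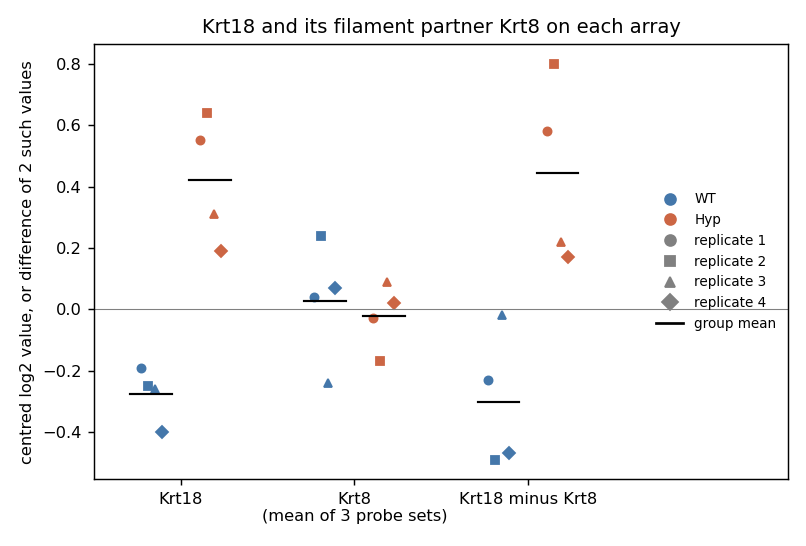
Centred log2 values of Krt18, of Krt8 as the mean of its 3 probe sets, and of Krt18 minus Krt8 (y axis) on each array, with WT in blue, Hyp in orange, 1 marker shape per replicate number and a bar at each group mean. Krt18 and the difference of the pair separate the genotypes, with the lowest Hyp array at 0.17 and the highest WT array at -0.02 for the difference, while Krt8 overlaps.

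Krt19, the smallest keratin and an alternative partner of Krt8, did not move with Krt18. Its values were 0.24, -0.04, -0.1 and -0.17 in Hyp and 0.03, 0.22, -0.03 and 0.38 in WT. The genotypes overlapped, with a difference of -0.17 ± 0.11 (SE).

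Krt10, a keratin of differentiating epidermal cells, was lower in Hyp bone by a small amount. It read -0.35, -0.03, -0.31 and -0.11 in Hyp and 0.22, 0.03, 0.15 and 0.24 in WT. The groups did not overlap, but the nearest arrays, Hyp replicate 2 at -0.03 and WT replicate 2 at 0.03, lay close together. The difference was -0.36 ± 0.09 (SE), or 1.28-fold lower in Hyp. It missed the threshold of an adjusted p of 0.05 (limma) when replicate 1 or 3 of Hyp, or replicate 1 or 4 of WT, was left out. The difference over all 8 left-out arrays ranged from -0.42 to -0.31. Krt10 was chosen with this comparison known, so its place at the threshold is a description and no test.

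Krt14, the type I keratin of basal epidermal cells, overlapped between genotypes at all 3 of its probe sets. The differences were 0.09 ± 0.08, 0.09 ± 0.07 and 0.06 ± 0.07 (SE), and no array lay beyond -0.26 or 0.16. The lowest of these values, at 1423935_x_at, was that of WT replicate 3.

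The junction proteins Cdh1 and Cldn7 overlapped between genotypes as well. Cdh1 read -0.06, -0.08, 0.23 and 0.08 in Hyp and 0.08, -0.01, 0.01 and -0.03 in WT, a difference of 0.03 ± 0.08 (SE). Cldn7, the claudin that binds EpCAM protein, read -0.07, 0.13, 0.08 and 0 in Hyp and -0.01, -0.02, 0 and 0.26 in WT, a difference of -0.02 ± 0.08. The full range over the 8 arrays was 0.31 for Cdh1 and 0.33 for Cldn7, against 2.87 for Epcam at 1416579_a_at.

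In the limma fit over all probe sets (adjusted p under 0.05), 3 of the 13 were called, where 7.13% of all probe sets were. Of these, 2 were higher, beside 3.22% of all probe sets, and 1 was lower, beside 3.91%. The groups did not overlap at 3 of the 13, where 15.5% of all probe sets did not overlap. Since the genes were chosen with this comparison known, nothing is read from these counts. The median difference of the 13 was 0.06 on the log2 scale, beside 0.022 for all probe sets. The 10 that were not called lay between -0.17 and 0.18.

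**Figure D3:**
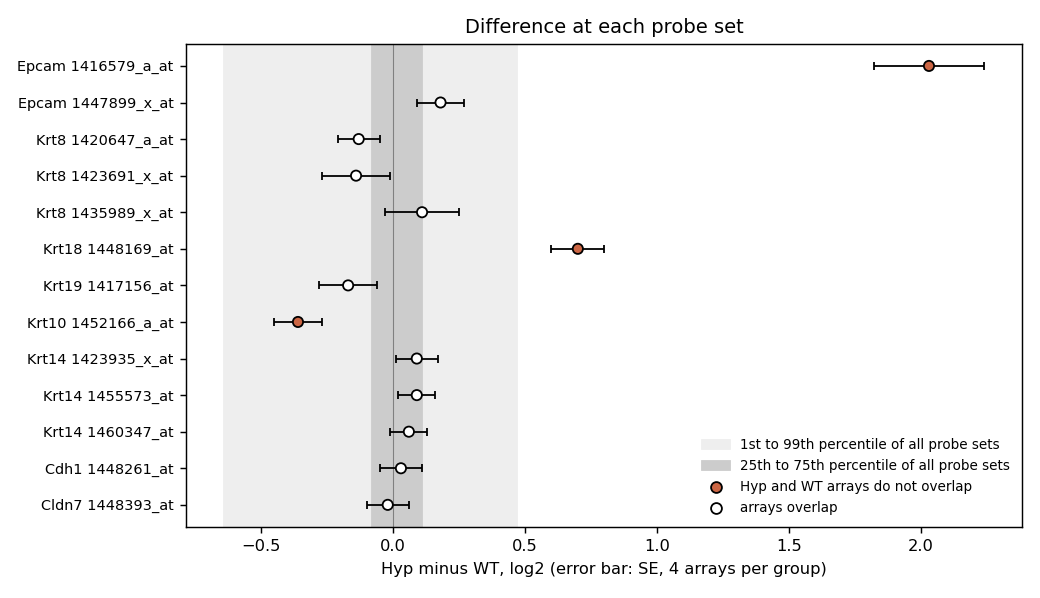
Hyp minus WT on the log2 scale (x axis) with its SE (bar, 4 arrays per group) for each of the 13 probe sets (y axis), over grey bands for all probe sets. Filled points are probe sets whose genotypes do not overlap. Epcam at 2.03 and Krt18 at 0.7 lie above the 99th percentile of all probe sets (0.47), and Krt10 at -0.36 lies above the 1st percentile (-0.64).

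The member genes lie apart in the genome except for Krt8 and Krt18, which are neighbours on chromosome 15 with no other gene measured here between them. Epcam is on chromosome 17, Cdh1 on 8, and Krt19, Krt10, Krt14 and Cldn7 on 11. The 2 nearest genes with a value on each side, chosen after the other results were seen, were taken for Epcam (Ttc7, Stpg4, Kcnk12 and Msh6) and for the Krt8 and Krt18 pair (Krt79, Krt78, Eif4b and Tns2). Their differences lay between -0.09 and 0.22, and 0 of the 8 passed (limma, 1 at an unadjusted p under 0.05). Over all genes 12.9% were called, so 0 of only 8 genes is close to that share and nothing is read from it. Tns2, at 0.22 ± 0.10 (SE; limma adjusted p = 0.171), passed without WT replicate 3.

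Other epithelial genes were not called more often than genes at large. The lists that follow were drawn up with results of these data known, leave out the 8 members, and use the mean of a gene's probe sets. In 5 lists of epithelial junction genes, epithelial regulators and proteases, other keratins, other claudins and epidermal markers, 7 of 113 genes rose and 0 fell (6.19% called; limma, adjusted p under 0.05; 10 higher and 4 lower at an unadjusted p under 0.05). Among all 18193 genes 6.54% were called higher and 6.32% lower, 12.9% in all. The median difference was 0.04, beside 0.02 for all genes. The count was 2 without WT replicate 1, 3 without Hyp replicate 3 or 4, and 4 without Hyp replicate 1 or WT replicate 4.

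The 7 that rose moved by little. St14, which encodes the membrane protease matriptase, rose by 0.38 ± 0.08 (SE; adjusted p = 0.013) and the keratin Krt80 by 0.32 ± 0.07 (adjusted p = 0.016), and each kept its call whichever array was left out. Klf5, a transcription factor of epithelia and vessels, rose by 0.26 ± 0.06, Pkp1, a desmosome protein, by 0.25 ± 0.07 and Krt73 by 0.23 ± 0.07. Cldn5, the claudin of endothelial cells, rose by 0.38 ± 0.10 and Cldn13 by 0.29 ± 0.07. These 5 had adjusted p from 0.019 to 0.049 and lost the call without 1 or more arrays, Klf5 without 4, Pkp1 without 6, Krt73 without 7, Cldn5 without 3 and Cldn13 without 4 of the 8. Their highest adjusted p was 0.121, for Krt73 without Hyp replicate 2. WT replicate 1 gave the highest for Klf5 (0.0625), Cldn13 (0.0694) and Cldn5 (0.0871), and Hyp replicate 4 for Pkp1 (0.102). Pkp1, Krt73 and Cldn5 have 1 probe set each, which was not called in the fit over all probe sets. Klf5 has 3, of which 1 was called there.

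By list, 1 of 19 epithelial junction genes rose, 2 of 20 regulators and proteases, 2 of 39 other keratins and 2 of 19 other claudins. None of the 21 epidermal keratinocyte markers measured was called in either direction (limma; 0 higher and 1 lower at an unadjusted p under 0.05), and they ranged from -0.18 to 0.16. Their mean value lay between -0.04 and 0.03 over the Hyp arrays and between -0.07 and 0.03 over the WT arrays. Krt5, the usual type II partner of Krt14, lay at 0.09 ± 0.07 (SE; adjusted p = 0.445) and Krt1, the partner of Krt10, at 0.16 ± 0.10 (adjusted p = 0.328). Grhl2, a transcription factor that activates Cdh1 in epithelium, lay at 0.11 ± 0.08 (adjusted p = 0.421). Krt5, Krt1 and Grhl2 were named after their values were seen.

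Genes that cut EpCAM, bind it or carry its signal changed in both directions, with 3 of 17 higher and 3 lower and a median of -0.05. Among all genes, 6.54% were called higher and 6.32% lower. Fhl2, a LIM protein that the released EpCAM tail binds, rose by 0.61 ± 0.05 (SE; limma adjusted p = 7.84e-05), with Hyp arrays at 0.24, 0.25, 0.27 and 0.34 and WT arrays at -0.37, -0.43, -0.3 and -0.24. St14 stands in this list too, and the membrane protease Bace2 rose by 0.22 ± 0.05 (adjusted p = 0.023; lost for 3 of 8 arrays left out, up to 0.0714 without WT replicate 1). Bace1, a related protease, fell by 0.29 ± 0.05 (adjusted p = 0.00554), with 2 of its 4 probe sets past the threshold. The tetraspanin Cd9 fell by 0.2 ± 0.05 (adjusted p = 0.0183; 0.0592 without WT replicate 1 and 0.0541 without WT replicate 4). Ctnnb1, or beta-catenin, fell by 0.22 ± 0.05 (adjusted p = 0.0212; lost for 6 of 8 arrays left out, up to 0.069 without WT replicate 1). The 1 probe set of Cd9 was not called in the fit over all probe sets. Bace2 and Ctnnb1 were named with their values in view.

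Several cadherins other than Cdh1 differed between genotypes. Among 16 catenins and other cadherins 1 rose and 4 fell, with a median of 0.02, where 6.54% of all genes were called higher and 6.32% lower. Cdh15, the cadherin of muscle precursors, fell by 0.58 ± 0.06 (SE; limma adjusted p = 0.00021), Cdh2, or N-cadherin, by 0.52 ± 0.06 (adjusted p = 0.000311) and Cdh11, the cadherin of osteoblasts and mesenchyme, by 0.25 ± 0.05 (adjusted p = 0.00888). Ctnnb1 was the other gene that fell. Cdh5, the cadherin of endothelium, rose by 0.41 ± 0.07 (adjusted p = 0.00507). With the probe set of the largest SD in place of the gene mean, Cdh5 lay at 0.38 with an adjusted p of 0.114. Cdh5 and Cdh11 each had 1 of 2 probe sets called in the fit over all probe sets.

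Among 12 factors known to repress Cdh1 or to drive loss of epithelial character, 0 rose and 3 fell (limma; 2 higher and 3 lower at an unadjusted p under 0.05), with a median of -0.02. The shares over all genes were 6.54% higher and 6.32% lower. Twist1, a bHLH factor that is also expressed in the osteoblast lineage, fell by 0.89 ± 0.17 (SE; adjusted p = 0.00578). Its Hyp arrays read -0.61, -0.95, -0.19 and -0.18 and its WT arrays 0.62, 0.18, 0.51 and 0.32, so the groups did not overlap. Prrx1 fell by 0.26 ± 0.07 (adjusted p = 0.0294, up to 0.0923 without WT replicate 1; lost for 5 of 8 arrays left out). Tcf4 fell by 0.17 ± 0.05 (adjusted p = 0.0418, up to 0.123 without WT replicate 1; lost for 7 of 8). In the fit over all probe sets, 0 of the 6 probe sets of Prrx1 and 0 of the 6 of Tcf4 were called. From probe sets whose names do not end in _a_at, _s_at or _x_at, Prrx1 lay at -0.21 and Tcf4 at -0.1 (limma adjusted p = 0.0657 and 0.254). In the Snail family, Snai1 lay at 0.17 ± 0.17, Snai2 at 0.03 ± 0.06 and Snai3 at 0.05 ± 0.07 (limma adjusted p = 0.584, 0.803 and 0.659). In the Zeb family the signs differed, with Zeb1 at 0.16 ± 0.05 and Zeb2 at -0.18 ± 0.08 (limma adjusted p = 0.0586 and 0.205). These Snail and Zeb genes were named after their values were seen.

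Of 16 other intermediate filament genes 1 rose and 2 fell, with a median of 0.02, beside 6.54% higher and 6.32% lower among all genes. Synm, or synemin, which links filaments in muscle, fell by 0.64 ± 0.09 (SE; limma adjusted p = 0.0011). Bfsp1 fell by 0.32 ± 0.07 (adjusted p = 0.0168; 0.0505 without WT replicate 4), and the lamin Lmnb1 rose by 0.33 ± 0.07 (adjusted p = 0.0116). Lmnb1 had 1 of 2 probe sets called in the fit over all probe sets. Vim, the vimentin of mesenchymal cells, lay at -0.05 ± 0.05 (adjusted p = 0.601) and was named after its values were seen.

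**Figure D4:**
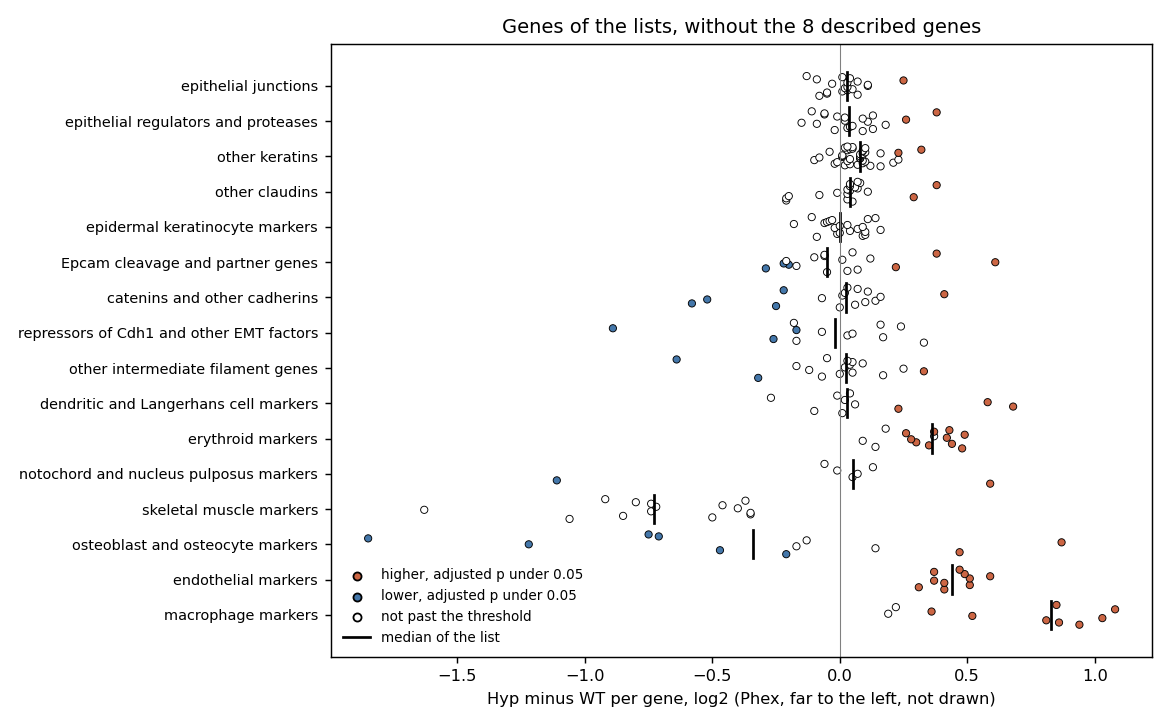
Hyp minus WT on the log2 scale (x axis) for each gene of the lists (y axis), without the 8 members and without Phex, with higher calls in orange, lower calls in blue, other genes open and a bar at the list median. Epithelial lists sit close to 0, with medians from 0 to 0.08, while macrophage, endothelial and erythroid markers sit to the right, with medians of 0.83, 0.44 and 0.36.

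Markers of other cells of long bone moved with genotype, and their part in the Epcam and Krt18 values was not tested. In bulk RNA, more cells of a type and more RNA per cell cannot be told apart. The counts that follow stand beside 6.54% of all genes called higher and 6.32% called lower. Of 10 macrophage markers 8 rose, and their mean ranged from 0.28 to 0.43 over the Hyp arrays and from -0.42 to -0.23 over the WT arrays. All 10 endothelial markers measured rose (limma, adjusted p under 0.05), with means of 0.13 to 0.26 against -0.35 to -0.18. Of 14 erythroid markers, a lineage whose human precursors carry E-cadherin, 10 rose, with means of 0.05 to 0.19 against -0.34 to -0.11. Of 12 osteoblast and osteocyte markers, Phex among them, 7 fell and 2 rose, with means of -0.58 to -0.36 against 0.33 to 0.58. Without Phex, the deleted gene, 6 of 11 fell and 2 rose, with means of -0.3 to -0.08 against 0.07 to 0.31.

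Dendritic and Langerhans cells, of which some carry EpCAM, had 3 of 10 markers higher and a median of 0.03. Of all genes, 6.54% were called higher and 6.32% lower. The MHC class II genes Cd74 and H2-Ab1, shared with B cells and macrophages, rose by 0.68 ± 0.10 and 0.58 ± 0.11 (SE; limma adjusted p = 0.00162 and 0.00525). Cd209a rose by 0.23 ± 0.07 (adjusted p = 0.0464) and lost the call for 7 of 8 arrays left out, at most 0.128 without WT replicate 1. Cd207, or langerin, the defining gene of Langerhans cells, lay at -0.1 ± 0.13 (adjusted p = 0.669; named after its value was seen). Notochord and nucleus pulposus cells hold Krt8 and Krt18. Of their 7 markers measured, 1 rose, 1 fell and 5 were not called, with a median of 0.05. The markers T and Noto were not measured. Acan rose by 0.59 ± 0.14 (limma adjusted p = 0.0225, up to 0.0611 without Hyp replicate 3). Car3, also abundant in muscle and fat, fell by 1.11 ± 0.06 (adjusted p = 7.04e-06). Acan, the main cartilage proteoglycan, lost the call for 4 of 8 arrays left out. Skeletal muscle markers had a median of -0.73 with 0 of 14 called (limma; 0 higher and 2 lower at an unadjusted p under 0.05) and means that overlapped, at -1.25 to 0.15 in Hyp and -0.59 to 1.98 in WT.

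When single arrays were left out, WT replicate 3 and Hyp replicate 2 with the extreme muscle means among them, the Epcam difference at 1416579_a_at ranged from 1.9 to 2.24 and that of Krt18 from 0.62 to 0.77. The part of muscle RNA in these values was not tested.

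The probe sets whose values lay nearest to Epcam 1416579_a_at over the 8 arrays, by mean absolute difference in log2 units, were those of Ctsw (0.2), Cyp11a1 (0.23), Eln (0.26), Cma1 (0.28) and Prkg2 (0.33). They were chosen for this likeness, which is set mainly by the genotype difference, so they carry no test. Ctsw, a cathepsin known from cytotoxic lymphocytes, read 1.29, 1.24, 1 and 0.5 in Hyp and -0.5, -0.52, -0.68 and -0.98 in WT. As for Epcam, replicate 4 was the lowest array within each genotype. Cyp11a1, the enzyme that starts steroid synthesis, read 1.36, 1.11, 1.17 and 0.48 in Hyp and -0.48, -0.85, -0.49 and -0.64 in WT. Cma1, the mast cell chymase, read 1.03, 1.58, 0.49 and 0.67 in Hyp and -0.57, -0.49, -0.67 and -0.68 in WT. Its highest array was Hyp replicate 2, as for Epcam, but its lowest Hyp array was replicate 3. Eln encodes elastin and Prkg2 a cGMP-dependent kinase of growth plate chondrocytes, and they differed by 1.87 ± 0.17 and 1.57 ± 0.11 (SE) between genotypes.

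**Figure D5:**
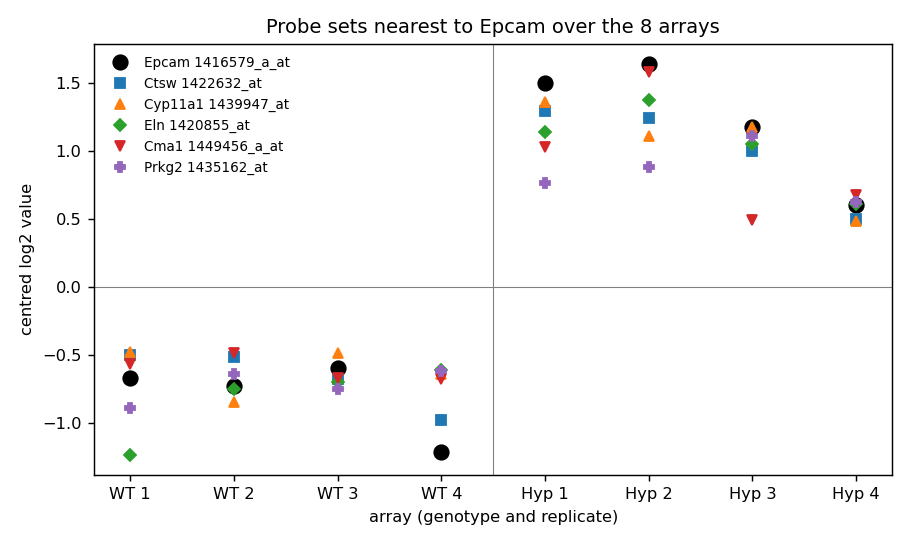
Centred log2 values (y axis) of Epcam 1416579_a_at and of the 5 probe sets nearest to it on each of the 8 arrays (x axis, replicates have no order). All 6 lie below 0 on every WT array and above 0 on every Hyp array, with Epcam the highest of the 6 on Hyp replicate 1 at 1.5.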

How the data were processed

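The 8 genes and all lists were chosen with earlier results of these data known. The deposited table holds 1 log2 value per probe set and array, made by the authors with RMA per the submitters' processing notes (version not given in the sources used here). The median of each probe set over the arrays was 0 within 5e-07, so the deposited values had been centred, which the labels do not mention. The log base was taken as 2, as RMA gives. The number of arrays limits the precision, and the median SD within groups was 0.117.

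The table has 45101 probe sets, of which 64 controls were not used. The platform annotation gave 1 symbol for 34945, several for 932 and none here for 9160. Current symbols were taken by gene identifier from a RefSeq table (GRCm38.p6), which held 34741 of those with 1 symbol. The genotypes were compared by limma 3.58.1 under R 4.3.3 (lmFit, then eBayes), once over all probe sets and once over 18193 gene means, two-sided, Benjamini-Hochberg adjusted with a threshold of 0.05. SE values come from these fits, except that of Krt18 minus Krt8, which comes from the SD of the 4 and 4 arrays. Data were simulated for this comparison over 45037 probe sets, with 200 changed and normal noise drawn independently for each probe set. On the log2 scale, 42 of 67 changed by 0.5, 64 of 67 changed by 1 and all 66 changed by 2 were recovered. There were 9 false calls. Probe sets of real arrays can vary together, so these counts are not the error rates of the real comparison.

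The rule for genes to name took all members, up to 4 called genes with the smallest p per list, the 5 probe sets nearest to Epcam and the label checks. For the macrophage, endothelial, erythroid and osteoblast lists, counts and means are printed in place of these genes, apart from Phex and Plvap. Genes named outside the rule are said to be named after their values were seen. Alternatives were quantile and cyclic loess normalization, median subtraction, the replicate number as a block, array weights, a robust prior, a filter on SD, a threshold of 0.1, other gene summaries, and leaving out arrays. A filter on level was not possible, since centring leaves no levels. No array duplicated another: the SD of their differences was at least 0.168.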

Additional observations from a re-analysis of the deposited data

Results flagged for a closer look

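In groups of 4 arrays, 7 of 118 had 1 array whose gap to the nearest other exceeded Dixon's 95% critical share of the group's range. Chance gives about 1 in 20 groups. Among the members these were Krt14 1423935_x_at in WT replicate 3, at -0.26 with the other WT arrays between 0 and 0.05, and Cldn7 in WT replicate 4, at 0.26 with the others between -0.02 and 0. Among listed genes, Krt80 and Krt73 stood apart in Hyp replicate 2, at 0.24 and 0.18. Cd9 in WT replicate 2 was at 0.05, Synm in Hyp replicate 1 at -0.12 and Plvap in Hyp replicate 1 at 0.19.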

How the results depend on the processing

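Under every alternative run, Epcam 1416579_a_at (1.9 to 2.32), Krt18 (0.62 to 0.77) and Krt10 (-0.42 to -0.31) kept their direction, and the other 10 member probe sets moved by less than 1 SD between arrays. Of those, Krt8 1435989_x_at (-0.03 to 0.22), Cdh1 (-0.03 to 0.07) and Cldn7 (-0.07 to 0.04) took either sign. With 1 array left out, 2 to 3 of the 13 were past the threshold. Calls of members are a description and no test, since they were chosen with this comparison known. All probe sets called higher numbered 1452, and 2206 with array weights, 965 with the filter on SD, 2714 at a threshold of 0.1 and 625 to 2125 with 1 array left out; those called lower numbered 1760, and 1055 to 1975 with 1 array left out. Of the 113 epithelial genes outside the members, 7 were higher, and 2 to 7 with 1 array left out. The count was 6 with the replicate number as a block and 4 with cyclic loess normalization. It was 5 with quantile normalization, with median subtraction and with the probe set of the largest SD per gene. Pkp1 and Krt73 lost the call with quantile normalization, cyclic loess and median subtraction, and Klf5 with cyclic loess. Of the 113, 0 were lower, and 0 to 1 with 1 array left out. This count was 1 with cyclic loess, with array weights or without both WT replicate 3 and Hyp replicate 2, and 2 at a threshold of 0.1. The causes were not tested. Same-numbered arrays did not all deviate together (correlations of deviations 0.15, -0.04, 0.26 and 0.18, and 2 of 4 Hyp arrays correlated best with their own number), so the numbers were not taken as pairs; with the replicate number as a block, 2 member probe sets were past the threshold, Epcam and Krt18, and Krt10 was not. With the block Tns2 and 2 skeletal muscle markers (lower) passed, as did 1 dendritic cell marker (lower), and Cldn13, Tcf4, Cd209a, Acan and Bace2 did not (limma adjusted p = 0.0582, 0.0795, 0.0516, 0.0627 and 0.0517); no other gene named by the rule changed its call. Leaving Phex out of the osteoblast list was chosen after seeing the data. Signal over background cannot be read from centred values.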
